A study of Mus musculus with 6 samples.

Results

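Ribosomal proteins and translation factors are represented here by 6 of the 516 genes in the deposited table: the cytosolic ribosomal proteins Rps7, Rps4x, Rps20 and Rpl27a, and the translation factors Eif3j1 and Eif5a. They were chosen by symbol, and each was found once. RNA was sequenced from ovulated metaphase II oocytes, mature eggs halted in the second meiotic division, of C57BL/6 females at postnatal day 24 that had received PMSG and hCG. In 1 group, called Mtor CKO here, the gene of the kinase MTOR was deleted by Zp3-Cre, a Cre recombinase driven by a promoter active in growing oocytes, and the other group was wild type (WT). The surrounding follicle cells of the Mtor CKO mice are not targeted by this Cre. Each group had 3 libraries (n = 3), each made from 5 oocytes lysed together.

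The ribosome is built from a small (40S) subunit, which reads the mRNA, and a large (60S) subunit, which joins amino acids. MTOR, as part of MTORC1, promotes the translation of ribosomal protein mRNAs, which begin with a terminal oligopyrimidine (TOP) tract, an unbroken stretch of C and T letters (C and U in the RNA) at the 5′ end. Maturing oocytes transcribe little and rely on stored mRNA, so the mRNA levels measured here are not a measure of translation.

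To show these tracts, the annotated start sites of the genes were searched in the RefSeq promoter set (GRCm38.p6) for a C followed by at least 6 further C or T letters, in the reading direction of the gene only. Within 50 bases of a start site, 3 of the 5 genes with a window held such a run in at least 1 window, and Rps20 has no window in that set. The share was 44.5% over all genes of the set, 40.5% over the 333 genes of the deposited table that have a window, and 86.2% over 65 cytosolic ribosomal protein genes. Within 20 bases it was 1 of the 5 genes, against 21.4% of all genes and 55.4% of the ribosomal protein genes. The 30-base stretches below run 5′ to 3′, with the run in capitals. Those of Rps7 and Rpl27a are shown because both hold a run and the means of these genes lay in opposite directions between the genotypes. Those of Rps4x and Eif3j1, centred on the start site, are shown because they hold none.
Rps7 (chr12:28635907-28635936, minus strand): ccccaCCTCTTTTCTTCCgccacccggata
Rpl27a (chr7:109519186-109519215, plus strand): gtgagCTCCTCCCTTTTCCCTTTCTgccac
Rps4x (chrX:102189377-102189406, minus strand): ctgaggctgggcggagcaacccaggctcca
Eif3j1 (chr2:122028565-122028594, plus strand): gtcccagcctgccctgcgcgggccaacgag
The run of Rpl27a is 20 letters long and starts 4 bases before the annotated start site, so it spans that site. The run of Rps7 is 13 letters long and starts at base 23 after its annotated start. Eif5a has several annotated starts, and 1 of their windows held a run, of 12 letters, starting at base 32. A match is a description of letters and not evidence of a working TOP tract, and no match says nothing about one outside these windows.

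The 3 small-subunit genes had higher levels in Mtor CKO oocytes, and the large-subunit gene Rpl27a and the factor Eif5a had lower means. The rows of the deposited table had already been picked by the difference between the genotypes, and their absolute log2 folds start at 1.0006 and their p-values end at 0.0099 in the authors' deposited table, so every gene here had to differ in these libraries. The limma tests below use the same libraries and are therefore not independent evidence of a difference. By the authors' deposited table, 4 of the 6 genes were higher and 2 lower in Mtor CKO, where 23.6% of all rows were higher, and 3 of the 6 had a q-value up to 0.05, as 49.2% of all rows did. By limma on log2(FPKM + 1), with Benjamini-Hochberg adjustment over the 471 tested genes at 0.05, 2 of the 6 rose (background 13.4% of tested genes), 1 fell (background 60.3%) and 3 did not pass, so that 3 of 6 passed where 73.7% of tested genes did. That whole-table count depends on single libraries: 63 genes higher and 284 lower passed with all libraries. The counts were 2 and 2 without CKO replicate 1, and 2 and 1 without CKO replicate 3. They were 2 and 1 without WT replicate 2, and 1 and 3 without WT replicate 3. Without WT replicate 1 they were 37 and 209, and without CKO replicate 2 they were 91 and 298. Most genes of the table were picked as lower, and the median log2 difference over tested genes was -1.03. Centring takes from each library its median of log2(FPKM + 1), which was 2.46 to 2.89 in Mtor CKO and 3.22 to 3.53 in WT. It thereby adds the same amount to the difference of every gene. With each library centred on its median, the split of genes that passed was 86 higher and 3 lower. The differences of the 6 genes then were 1.69 for Rps7, 1.72 for Rps4x, 1.84 for Rps20, -0.38 for Rpl27a, 1.39 for Eif3j1 and -0.41 for Eif5a, each with the same sign as without centring. The groups did not overlap in 3 of the 6 genes, all with higher values in Mtor CKO, where 14.4% of tested genes were separated in that direction and 74.3% in either. Separation with lower values in Mtor CKO was seen in 0 of the 6 and in 59.9% of tested genes.

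An FPKM value is a fragment number relative to transcript length and to all mapped fragments. The file holds no fragment counts, so the depth behind each value is unknown and no counting interval can be given. As FPKM values are shares of a library, less of a transcript and more of the rest cannot be told apart, and neither can fewer cells of a type and less RNA per cell. Mtor has no row among the 516 and was not analysed here, so the labels have no check from the deleted gene. Whether each library came from other mice is not in the labels, so the p-values reflect library-to-library spread, part of which may be technical. Of 20 oocyte markers 3 were in the table, Zp2, Nlrp5 and Zar1l, with a summed level of 257 to 290 FPKM over the Mtor CKO libraries and 469 to 916 FPKM over the WT libraries. Zp2 and Nlrp5 make up most of that sum and fell, whereas Zar1l rose, from 12.9 ± 5.13 FPKM in WT to 29.3 ± 6.91 FPKM in Mtor CKO (SD, n = 3 each; limma adjusted p = 0.0391). Of the markers of other cells, 2 of 27 for cumulus and granulosa cells (Vcan and Mro), 1 of 15 for oviduct epithelium (Krt7) and 0 of 15 for blood and immune cells were in the table. The cumulus sum was 1.68 to 3.15 FPKM over the Mtor CKO libraries and 4.50 to 9.86 FPKM over the WT ones, with Vcan listed at 0 in every Mtor CKO library and in WT replicate 3, and at 0.245 FPKM in WT replicate 2 and 4.33 FPKM in WT replicate 1. Krt7 was at 4.23 to 10.1 FPKM across Mtor CKO libraries and at 2.45 to 4.40 FPKM across WT libraries. The part of these other cells in the results was not tested.

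**Figure D1:**
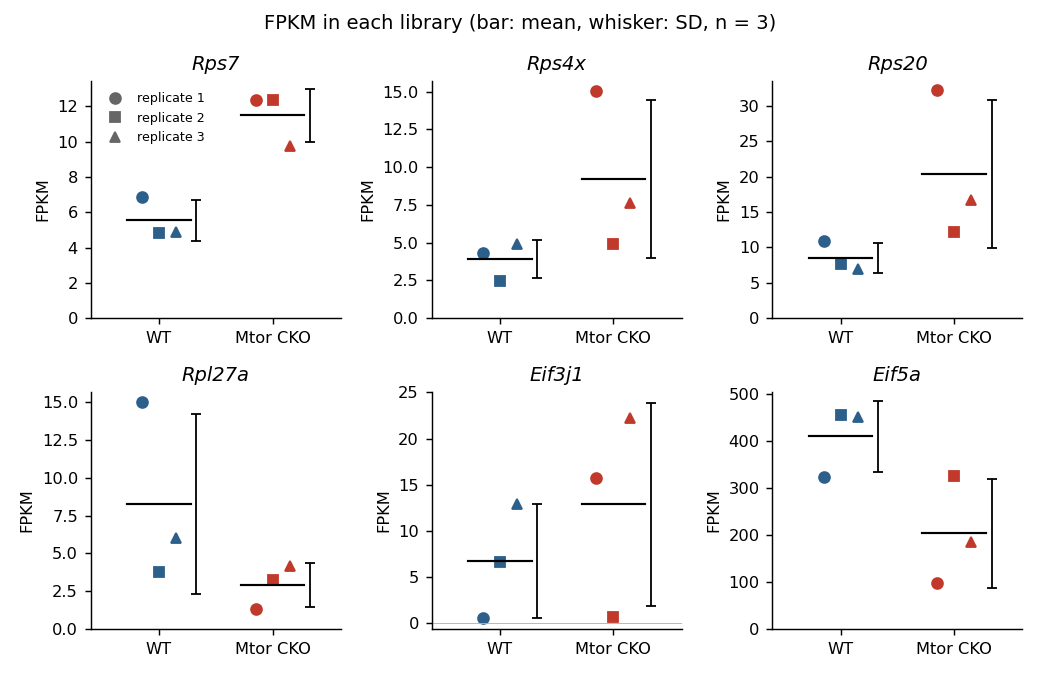
FPKM (vertical axis, from 0) of the 6 genes in each WT (blue) and Mtor CKO (red) library. Symbols mark the replicate number, the bar is the mean and the whisker the SD (n = 3). Rps7, Rps4x and Rps20 do not overlap between genotypes, whereas Rpl27a, Eif3j1 and Eif5a do.

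Rps7 encodes a protein of the 40S subunit that is also needed for processing of the rRNA precursor. The row (ENSMUSG00000061477, chromosome 12, 28630847 to 28635953, mm10, minus strand) spans a gene with up to 7 exons and 1 annotated transcript of 954 bases. Its level was 12.4, 12.4 and 9.78 FPKM in Mtor CKO replicates 1 to 3, and 6.88, 4.85 and 4.90 FPKM in WT replicates 1 to 3. Every Mtor CKO library was above every WT library, and the libraries within a genotype lay close together. The mean was 11.5 ± 1.499 FPKM for Mtor CKO against 5.55 ± 1.16 FPKM for WT (SD, n = 3 each), a ratio of 2.07.

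By limma Rps7 rose by 0.94 on the log2(FPKM + 1) scale (SE 0.34, 95% interval 0.18 to 1.70, adjusted p = 0.0410). That scale understates the change of low genes. The SD was 13.0% of the mean in Mtor CKO and 20.9% in WT, below the medians over tested genes of 41.5% and 29.4%. Rps7 was also the member nearest to both bounds of the table, with a log2 fold of 1.02 and a p of 0.0089 (q = 0.172) in the authors' deposited table. The limma call was lost without CKO replicate 1 (adjusted p = 0.0978), CKO replicate 3 (0.0978), WT replicate 2 (0.118) or WT replicate 3 (0.111), while the difference stayed between 0.87 and 1.08. The coding sequence has 7 near-identical copies among annotated transcripts, here meaning at least 95% identity over at least 80% of its 582 bases, and these 7 are pseudogenes. Reads can be split between such copies, so the level is uncertain.

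Rps4x encodes a 40S protein from the X chromosome (row ENSMUSG00000031320, chromosome X, 102184761 to 102189394, minus strand). Its level was 15.1, 4.95 and 7.60 FPKM in Mtor CKO replicates 1 to 3, and 4.35, 2.48 and 4.91 FPKM in WT replicates 1 to 3. The groups were separated by a narrow gap, since CKO replicate 2, at 4.95 FPKM, lay just above WT replicate 3. CKO replicate 1 stood far above the others. The means were 9.21 ± 5.25 and 3.91 ± 1.28 FPKM (SD, n = 3 each), a ratio of 2.35.

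The log2 difference of Rps4x was 0.97 (SE 0.45, 95% interval -0.05 to 1.99) and did not pass limma (adjusted p = 0.0699). Without CKO replicate 2 it was 1.30 and passed (adjusted p = 0.0273), and without CKO replicate 1 it was 0.58 (adjusted p = 0.207). In the authors' deposited table the log2 fold was 1.24 and the q-value 0.104. Of 7 near-identical copies, 6 are pseudogenes, so this level too is uncertain.

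Rps20 encodes a protein of the head of the 40S subunit (row ENSMUSG00000028234, chromosome 4, 3831334 to 3835665, minus strand). The row also covers the snoRNA gene Gm24016, and the coding sequence has 2 near-identical pseudogene copies. The annotated transcripts of the row run from 512 to 3706 bases, so the length by which its fragments were divided could vary widely. Its level was 32.2, 12.2 and 16.8 FPKM in Mtor CKO replicates 1 to 3, and 10.9, 7.59 and 6.93 FPKM in WT replicates 1 to 3. The groups did not overlap, and CKO replicate 1 was again the highest library.

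Mean levels of Rps20 were 20.4 ± 10.5 FPKM for Mtor CKO against 8.47 ± 2.12 FPKM for WT (SD, n = 3 each), a ratio of 2.41, the highest Mtor CKO to WT ratio of the 6 genes. By limma it rose by 1.09 on the log2 scale (SE 0.43, 95% interval 0.12 to 2.06, adjusted p = 0.0459). Without CKO replicate 1 the difference was 0.72 (adjusted p = 0.135). The call was also lost without CKO replicate 3 (adjusted p = 0.0996), WT replicate 1 (0.0571), WT replicate 2 (0.120) or WT replicate 3 (0.113), and with no filter on level (0.0507). The log2 fold in the authors' deposited table was 1.37, with a q-value of 0.165.

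The proportions of the small-subunit genes to each other overlapped between the genotypes, and those of Rps7, Rps4x and Rps20 to Rpl27a did not. The Rps20 to Rps4x ratio of FPKM levels was 2.14, 2.47 and 2.20 in Mtor CKO and 2.50, 3.07 and 1.41 in WT, and the Rps20 to Rps7 ratio was 2.60, 0.987 and 1.71 in Mtor CKO and 1.58, 1.56 and 1.41 in WT. The genotypes overlapped in both ratios. The ratio of Rps7 to Rpl27a was 9.26, 3.82 and 2.35 in Mtor CKO and 0.459, 1.29 and 0.820 in WT, and that of Rps20 to Rpl27a was 24.1, 3.77 and 4.03 in Mtor CKO and 0.726, 2.02 and 1.16 in WT. The ratio of Rps4x to Rpl27a was 11.3, 1.53 and 1.83 in Mtor CKO and 0.290, 0.660 and 0.821 in WT. In each Mtor CKO library, each of these ratios to Rpl27a was above that of every WT library. They were formed from genes of a table picked for differences, which by its making favours genes that lie apart, and no test was made of them.

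Rpl27a encodes a 60S protein (row ENSMUSG00000046364, chromosome 7, 109519147 to 109522367, plus strand). Its level was 1.34, 3.23 and 4.16 FPKM in Mtor CKO replicates 1 to 3, and 15.0, 3.75 and 5.98 FPKM in WT replicates 1 to 3. The groups overlapped, since CKO replicate 3 was above WT replicate 2, and WT replicate 1 stood far above the rest. The means were 2.91 ± 1.44 FPKM for Mtor CKO against 8.25 ± 5.96 FPKM for WT (SD, n = 3 each), with a WT to Mtor CKO ratio of 2.83.

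The log2 difference of Rpl27a was -1.13 (SE 0.52, 95% interval -2.30 to 0.05) and did not pass limma (adjusted p = 0.0683). Without WT replicate 1 it was -0.64 (adjusted p = 0.206). The authors' deposited table gave it a log2 fold of -2.01 and a q-value of 0.0300. Of the 6 transcripts of the gene listed for this row, 4 are annotated as retained introns and 1 as protein coding, and the row also covers the snoRNA genes Snora3 and Gm24888 and the miRNA gene Gm47284. The coding sequence has 11 near-identical pseudogene copies, more than that of any other of the 6 genes. Reads of messenger RNA, introns, snoRNA and copies cannot be told apart in 1 FPKM value.

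Eif5a was by far the most abundant of the 6 genes. It encodes the elongation factor eIF5A, which carries the modified amino acid hypusine and helps ribosomes past stalling sequences and in termination. The row (ENSMUSG00000078812, chromosome 11, 69916711 to 69921958, minus strand) lists 13 annotated transcripts, all coding, and overlaps no other annotated gene, and its coding sequence has 1 near-identical pseudogene copy, so its level too is uncertain. Its level was 97.8, 326 and 185 FPKM in Mtor CKO replicates 1 to 3, and 323, 456 and 449 FPKM in WT replicates 1 to 3. The groups overlapped by a narrow margin, since CKO replicate 2 lay just above WT replicate 1, and the lowest library was CKO replicate 1. Among the 516 rows it ranked 12 by mean level in WT and 18 in Mtor CKO.

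Eif5a had a mean of 203 ± 115 FPKM for Mtor CKO against 409 ± 75.04 FPKM for WT (SD, n = 3 each), with a WT to Mtor CKO ratio of 2.02. It fell by 1.16 on the log2 scale (SE 0.47, 95% interval -2.22 to -0.09, limma adjusted p = 0.0497), close to the median of -1.03 over all tested genes. The call was at the edge of the threshold. It was lost with a pseudocount of 0.1 (adjusted p = 0.0526) or 0.5 (0.0501), with no filter on level (0.0560) and with the filter set on group means, 1 FPKM or more in either genotype (0.0555). With each library centred on its median it was lost too (difference -0.41, adjusted p = 0.493). Centring adds the same amount to every gene of a table picked mostly as lower. A gene near the table median thus comes near 0, and this loss says little about Eif5a itself. Without CKO replicate 1 the difference was -0.72 (adjusted p = 0.139), and the call was also lost without CKO replicate 3 (0.111), WT replicate 1 (0.0671), WT replicate 2 (0.129) or WT replicate 3 (0.111). The authors' deposited table gave a q-value of 0.0209, the lowest of the 6 genes.

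Eif3j1 varied more between libraries of a genotype than between the genotypes. It encodes the j subunit of the initiation factor eIF3, a loosely bound subunit that contacts the 40S subunit. Its level was 15.7, 0.697 and 22.2 FPKM in Mtor CKO replicates 1 to 3, and 0.633, 6.60 and 12.9 FPKM in WT replicates 1 to 3. The groups overlapped over most of their range, with 1 library near 0 in each genotype. The means were 12.9 ± 11.03 FPKM for Mtor CKO against 6.72 ± 6.15 FPKM for WT (SD, n = 3 each), so that the SD was 85.7% and 91.5% of the mean.

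The log2 difference of Eif3j1 was 0.64 (SE 1.06, 95% interval -1.77 to 3.06, limma adjusted p = 0.560). It was -0.06 without CKO replicate 3 and -0.24 without WT replicate 1, and reached 1.82 without CKO replicate 2 (adjusted p = 0.0692). In the authors' deposited table the log2 fold was 2.04 and the q-value 0.0489, from a group FPKM of 7.73 in Mtor CKO and 1.88 in WT. That WT group value was 0.280 of the mean of the WT libraries, where the median over the table was 0.915, and Eif3j1 was the 1 gene of the table below 0.3. The deposited log2 fold and the log2 ratio of the library means differed by 1.10, the second largest of the 513 genes where both exist. The row (ENSMUSG00000027236, chromosome 2, 122028546 to 122118386, plus strand) covers 89841 bases, whereas the annotated gene covers 28053. The interval takes in the protein-coding gene Spg11 on the other strand and the miRNA gene Gm47314, and the coding sequence has 1 near-identical copy, the gene Eif3j2, so the values cannot be given to Eif3j1 alone.

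**Figure D2:**
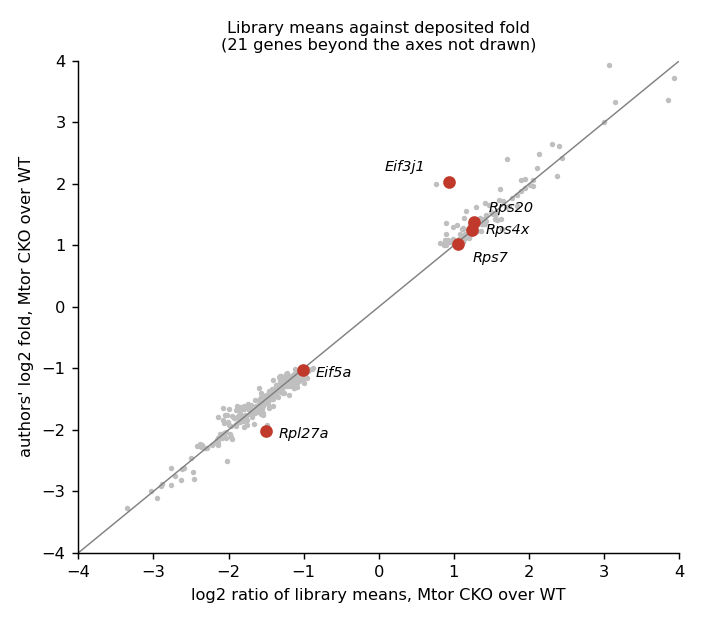
Log2 ratio of the library means, Mtor CKO over WT (horizontal), against the log2 fold in the authors' deposited table (vertical), for 492 genes, with 21 further genes beyond the axes. The line marks equal values, and of the 6 genes in red Eif3j1 lies furthest from it, at 0.94 and 2.04.

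By level, Eif5a came first in both genotypes, and its range did not reach that of the next gene, Rps20. In WT the remaining order of means was Rps20, Rpl27a, Eif3j1, Rps7 and Rps4x, and the ranges of neighbours in this order overlapped, as those of Rps7 and Rps4x did at 4.85 to 6.88 and 2.48 to 4.91 FPKM. In Mtor CKO the order after Eif5a was Rps20, Eif3j1, Rps7, Rps4x and Rpl27a. There the range of Rpl27a, 1.34 to 4.16 FPKM, lay below that of Rps4x, and the other neighbours after Rps20 overlapped. FPKM is per length, but the near-identical copies limit this comparison between genes.

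CKO replicate 1 had the highest Mtor CKO level of Rps4x and Rps20, was level with replicate 2 for Rps7, and had the lowest level of Rpl27a and Eif5a. The table as a whole had the same feature. Of the 110 tested genes that were higher in Mtor CKO, 73 (66.4%) had their highest Mtor CKO value in replicate 1, and of the 361 lower genes 232 (64.3%) had their lowest there. Without that library the differences of the 6 genes were 0.89 for Rps7, 0.58 for Rps4x, 0.72 for Rps20, -0.79 for Rpl27a, 0.17 for Eif3j1 and -0.72 for Eif5a. Then 0 of the 6 passed limma, where only 2 higher and 2 lower of all 471 tested genes passed.

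**Figure D3:**
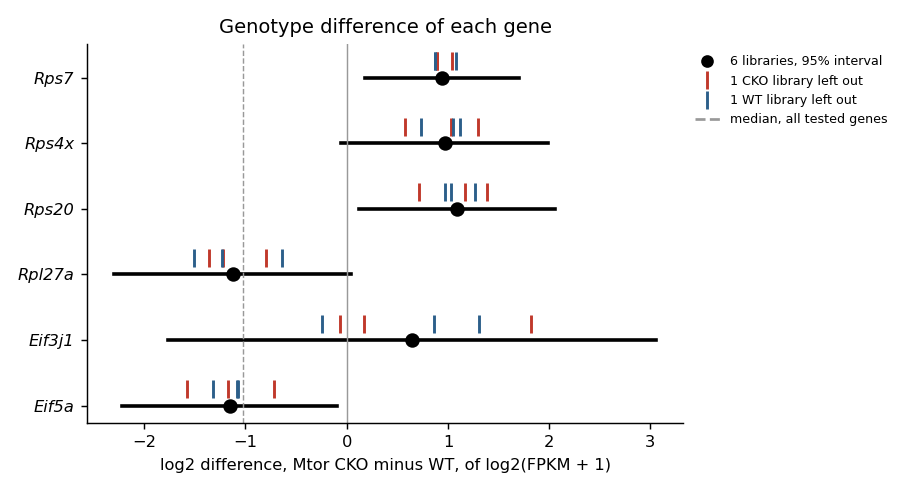
Log2 difference, Mtor CKO minus WT, of log2(FPKM + 1) for each gene (horizontal). Black points and lines give the estimate and 95% interval with 6 libraries, ticks give it with 1 library left out (red for an Mtor CKO library, blue for a WT library), and the dashed line marks the median of all tested genes, -1.03. The ticks of Eif3j1 fall on both sides of 0, from -0.24 to 1.82, and those of the other 5 genes stay on 1 side.

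**Figure D4:**
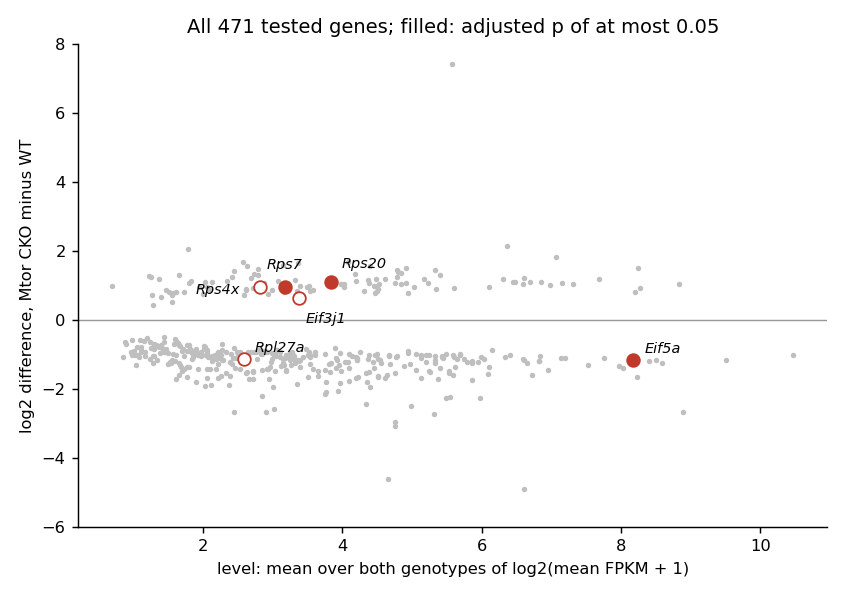
Level (horizontal, mean of log2(mean FPKM + 1) over both genotypes) against the log2 difference, Mtor CKO minus WT (vertical), for the 471 tested genes in grey and the 6 genes in red, filled where the adjusted p was at most 0.05. Few genes lie near 0, as the table was picked for differences, and Eif5a lies at the high end of level.

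The genes whose profile over the 6 libraries lay nearest to each gene were found as those with the smallest root-mean-square distance between profiles of log2(FPKM + 1), each centred on its own mean. For Rps20 they were Atp5j2, a subunit of ATP synthase (distance 0.177, in log2 units), and Ube2w, a ubiquitin-conjugating enzyme (0.200). For Rps7 they were Gm11541 (0.119) and Krtcap2, a subunit of the oligosaccharyltransferase (0.148), and for Rps4x they were Acot13, a thioesterase (0.129), and 1700023A16Rik (0.165). For Eif5a they were Hnrnpk, an RNA-binding protein (0.135), and Gpd2, a mitochondrial glycerol-phosphate dehydrogenase (0.142). The nearest profiles of Rpl27a, Gm14576 (0.319) and Gm129 (0.352), and of Eif3j1, Vault (0.749) and Rbm15 (0.845), were further away. The 6 libraries are few, and genes picked for 1 contrast share that contrast. As this scale understates the change of low genes, a short distance can join genes with different folds. Gm11541 averaged 0.161 FPKM over WT libraries and 1.28 FPKM over Mtor CKO ones. Its log2 ratio of means, Mtor CKO over WT, was 2.99, against 1.05 for Rps7 and 1.09 for Krtcap2. For Gpd2, at 3.30 and 0.948 FPKM in that order, the ratio was -1.80, against -1.01 for Eif5a and -1.10 for Hnrnpk.

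Other genes of the translation machinery in the table were taken from lists of fixed symbols. On the list of 66 translation factors, 3 were in the table, of which 2 fell and 1 did not pass, where 60.3% of tested genes fell and 13.4% rose, with a median log2 difference of -1.16 against -1.03 over all tested genes. Beside Eif5a, the gene that fell was Paip2, an inhibitor of the poly(A)-binding protein. Its level was 72.7, 78.5 and 68.9 FPKM in Mtor CKO libraries and 217, 143 and 152 FPKM in WT, with no overlap (log2 difference -1.18, SE 0.33, limma adjusted p = 0.0362). On the list of 87 cytosolic ribosomal proteins, 4 were in the table, of which 2 rose, 0 fell and 2 did not pass, against the same 13.4% and 60.3% of tested genes, with a median log2 difference of 0.95. These 4 are the genes described above.

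Of 101 ribosome biogenesis genes 5 were in the table, and 4 fell and 0 rose, with a median log2 difference of -1.11. Over all tested genes 60.3% fell and the median was -1.03, so this count is near the background. Rrn3, an initiation factor of RNA polymerase I, fell from 12.8 ± 4.64 FPKM in WT to 4.68 ± 1.30 FPKM in Mtor CKO (SD, n = 3 each; limma adjusted p = 0.0374). Pes1, needed for maturation of the 60S subunit, was at 1.87, 4.15 and 1.85 FPKM without Mtor and at 3.50, 10.3 and 7.31 FPKM in WT, with overlap between the groups (adjusted p = 0.0470). The call of Pes1 was lost with no filter on level (adjusted p = 0.0543) and with the filter set on group means (0.0537). The RNA helicase Ddx47 and the nucleolar protein Pwp1 fell by 1.10 and 1.07 on the log2 scale. Nop14, which acts in 40S maturation, did not pass (adjusted p = 0.169): it was at 931 FPKM in WT replicate 2 and between 0.977 and 8.44 FPKM in the other libraries. Its log2 difference was -2.74, and -0.20 without WT replicate 2.

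For mitochondrial translation, 2 of 79 mitochondrial ribosomal proteins were in the table, and they moved in opposite directions. Mrpl37 fell from 13.7 ± 1.15 FPKM in WT to 4.72 ± 2.48 FPKM in Mtor CKO, and Mrpl55 rose from 4.10 ± 1.71 to 9.50 ± 2.88 FPKM (SD, n = 3 each; limma adjusted p = 0.0362 and 0.0424). Of 12 mitochondrial translation factors Gfm2, which recycles mitochondrial ribosomes, was in the table and fell by 1.005 on the log2 scale. Of the 18 genes of the MTORC1 translation arm and of eIF5A hypusination, 0 were in the table. Of the 8 genes beside Eif5a, Rps7 and Rps20 that passed on these lists, 0 passed without CKO replicate 1 (adjusted p from 0.0847 to 0.123) or CKO replicate 3 (0.0964 to 0.127). The same held without WT replicate 2 (0.102 to 0.144) or WT replicate 3 (0.0843 to 0.139). In these fits, in that order, 2 higher and 2 lower, 2 and 1, 2 and 1, and 1 and 3 of all 471 tested genes passed. The loss was thus shared by nearly the whole table. Without WT replicate 1, 5 of the 8 passed, where 37 higher and 209 lower genes of the table did. Without CKO replicate 2 the 8 passed, where 91 and 298 genes did. With centred libraries 1 of the 8 passed, Mrpl55, where 86 and 3 genes did. The 8 kept their directions in these and all other alternatives tried. Since the table holds genes picked for a difference, a gene without a row has no value here, and no direction for these lists as a whole can be given.

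**Figure D5:**
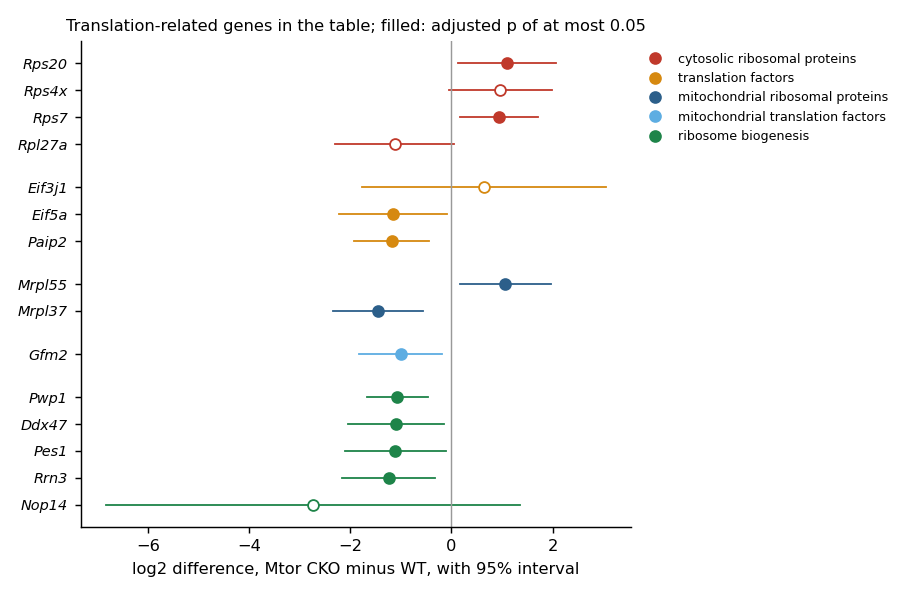
Log2 difference, Mtor CKO minus WT, with its 95% interval (horizontal) for each gene of the translation lists that is in the table, coloured by list and filled where the limma adjusted p was at most 0.05. Ribosome biogenesis genes lie below 0, and the 3 genes of the 40S subunit lie near 1.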

How the data were processed

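TopHat2 2.0.8b, Cufflinks 2.1.1, Cuffdiff and build mm10 are named by the submitters' processing notes. Their settings are not given in the sources used here. Per the labels, cDNA from 5 oocytes was amplified by 17 PCR cycles. The deposited table holds the authors' FPKM values, 1 for each library and 1 for each group, and the authors' log2 fold change, p-value and q-value. That log2 fold equalled CKO over WT in 513 of 513 genes with group values above 0, within 0.001. Table intervals start 1 base below the GENCODE M21 start in 237 of 446 matched genes (equal in 4), so 1 was added to each printed start.

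Limma 3.58.1 in R 4.3.3 was fitted with an empirical Bayes trend to log2(FPKM + 1) wherever 3 or more libraries reached an FPKM of 1 (471 of 516 genes). P-values were adjusted by Benjamini-Hochberg at 0.05, and the fit was tested on simulated data. Copies were sought with blastn 2.17.0 in GENCODE M21 transcripts. All 6 genes are described, with the 2 nearest profiles each and the listed translation genes found in the table. Pseudocounts, filters, centring, the trend, a replicate block and each left-out library were tried as alternatives, for the other translation genes after seeing the data. The genes and lists were chosen with earlier results of these data known. The TOP windows were chosen after sequences had been seen.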

Additional observations from a re-analysis of the deposited data

How the results depend on the processing

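The count of the 6 genes past the threshold was 3, ranged from 0 to 4 when 1 library was left out, and was 1 with no filter on level, where Rps20 (difference 1.09) and Eif5a (-1.16) were lost. With no filter, 59 higher and 262 lower of all 516 genes passed. With libraries centred on their median, 3 genes of the table passed as lower in place of 284, and Eif5a was at -0.41. Eif5a was also lost at -1.16 with either smaller pseudocount and with the filter set on group means. Leaving out 1 library gave 1 to 91 higher and 1 to 298 lower genes in the table. The differences then ranged from 0.87 to 1.08 for Rps7, 0.58 to 1.30 for Rps4x, 0.72 to 1.38 for Rps20, -1.51 to -0.64 for Rpl27a, -0.24 to 1.82 for Eif3j1 and -1.58 to -0.72 for Eif5a. Eif3j1 changed sign, to -0.06 without CKO replicate 3 and -0.24 without WT replicate 1. The cause was not tested. With the replicate number as a block, Rps4x (0.97) passed at an adjusted p of 0.0386 and 4 of the 6 genes passed. In that fit 79 higher and 326 lower of all 471 tested genes passed. The replicate numbers were not taken as pairs in the main fit. Deviations of same-numbered libraries correlated at 0.115, 0.240 and 0.0843. Those of differently numbered libraries ran from -0.218 to -0.00681, apart from 0.118 for CKO replicate 1 with WT replicate 3. The deviations of a gene sum to 0 within a genotype, so positive values for some library pairs force negative values for others. This contrast is therefore partly fixed by the calculation. Whether the numbers mark pairs was not tested. Each fit has 3 libraries a group at most, and the unknown depth limits the precision of low levels such as those of Rpl27a.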
